A study of Mus musculus with 6 samples.

Results

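Macrophage identity genes are described here in embryonic long bone: Cd14, Lyz2, Adgre1, Cd68, Mrc1, Cd163, Cx3cr1, Aif1, Tyrobp and Fcer1g. They are the 10 rows, of 23930 in the deposited table, whose gene symbol is on that list, and all 10 passed the filter on low values. The RNA was that of humerus shafts of E16.5 mouse embryos, a late stage of limb development. The 3 Stat3 KO libraries have the genotype Prrx1Cre; Stat3C/C, a conditional Stat3 allele on both chromosomes with the Prrx1Cre driver, and the 3 Ctrl libraries have the genotype Stat3C/+, with a single conditional allele and no driver named, although the labels also call them wild type. Both groups therefore carry a conditional allele, and the driver and the loss of Stat3 differ together between them. The question of the series was which genes differ in expression between these groups.

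Macrophages are phagocytes of the blood lineage that enter the developing limb, clear dying cells and debris, and share a precursor with the osteoclasts that resorb bone. Prrx1Cre is active in limb bud mesenchyme, from which cartilage, bone-forming cells and connective tissue arise, and not in the blood lineage. The genes described here fall into surface receptors that sense microbes or debris (Cd14, Mrc1, Cd163), lineage surface markers (Adgre1, which encodes F4/80, and the fractalkine receptor gene Cx3cr1), lysosomal and antibacterial proteins (Lyz2, Cd68), the actin-binding protein gene Aif1, and the adaptor genes Tyrobp and Fcer1g. The adaptors carry a tyrosine activation motif, abbreviated ITAM, and pass signals of partner receptors to the kinase SYK. None of these genes is exclusive to macrophages. Lyz2 and Cd14 are also expressed by neutrophils and monocytes, Cd68 by osteoclasts, Mrc1 by some endothelial cells, and the adaptors by mast cells, neutrophils, osteoclasts and natural killer cells.

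The assay amplified 1 short target, an amplicon, per gene, and the authors gave each as RPM, reads scaled to a common library total. Depth was 9126493 to 11809106 reads in Stat3 KO libraries and 11640697 to 13376550 in Ctrl libraries, so a single read was worth 0.0748 to 0.110 RPM. The 10 genes held 28 to 2626 reads per library. RPM values of different amplicons do not give their relative RNA levels, because each depends on how well its own target was amplified. Sums of RPM over a list, given below, are weighted by this too, and were compared only between libraries. In bulk bone, fewer cells of a type and less RNA per cell cannot be told apart. The Stat3 amplicon itself was at 208, 201 and 170 RPM in Stat3 KO libraries 1 to 3, against 211, 201 and 211 RPM in Ctrl libraries 1 to 3 (limma, adjusted p = 0.380). It is not stated whether that amplicon falls inside the stretch removed by Cre, so it checks nothing about the labels. Over all 12846 amplicons tested, 733 were higher and 1409 lower in Stat3 KO with the deposited scaling, and 984 were higher and 966 lower with TMM factors.

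Promoter windows of the Lyz2 and Cd68 genes, the members past the test that the RefSeq table (GRCm38.p6) holds, and of Mrc1, the member with the lowest fold change, are shown because the search for binding motifs below refers to them. Each window runs 5′ to 3′ on the gene's own strand, 300 bases in all, from upstream of the annotated start to 50 bases into the transcript. Capitals mark matches, on either strand, to any of the motifs searched. The Lyz2 window lies at chr10:117282223-117282522 (minus strand), the Cd68 window at chr11:69666121-69666420 (minus strand) and the Mrc1 window at chr2:14229164-14229463 (plus strand).
Lyz2: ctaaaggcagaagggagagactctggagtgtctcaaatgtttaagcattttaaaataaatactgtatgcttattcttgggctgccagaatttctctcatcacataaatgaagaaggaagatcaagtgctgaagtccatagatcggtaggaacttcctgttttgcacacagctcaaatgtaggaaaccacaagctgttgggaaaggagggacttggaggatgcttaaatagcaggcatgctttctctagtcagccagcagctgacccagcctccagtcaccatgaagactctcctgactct
Cd68: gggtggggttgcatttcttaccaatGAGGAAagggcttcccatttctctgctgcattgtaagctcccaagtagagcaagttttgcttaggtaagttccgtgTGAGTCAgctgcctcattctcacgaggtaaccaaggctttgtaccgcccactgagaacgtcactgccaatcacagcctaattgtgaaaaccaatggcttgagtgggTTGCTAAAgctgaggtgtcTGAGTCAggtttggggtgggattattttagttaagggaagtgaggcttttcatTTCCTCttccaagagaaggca
Mrc1: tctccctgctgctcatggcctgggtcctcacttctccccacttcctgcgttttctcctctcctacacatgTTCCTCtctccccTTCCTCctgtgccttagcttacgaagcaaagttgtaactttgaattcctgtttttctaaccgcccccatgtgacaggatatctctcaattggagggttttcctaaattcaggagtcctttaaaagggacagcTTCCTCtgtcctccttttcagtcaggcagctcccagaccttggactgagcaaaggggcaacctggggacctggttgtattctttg

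The table held windows for 7 of the 10 genes, and 5 motifs were searched in them on both strands. The core bound by PU.1 and other ETS factors, GAGGAA, was in 3 of the 7 windows (Mrc1, Cd68 and Aif1) and in 28.3% of the 27025 promoter windows of this length in the table. Mrc1 held it at 3 places, and Cd68 at 2. The STAT element TTCNNNGAA was in 0 of the 7 windows and in 8.47% of all windows. The interferon-stimulated response core (GAAA, any 2 bases, GAAA) was in the Aif1 window and in 3.49% of all windows. The AP-1 element TGANTCA stood at positions -149 and -24 of the Cd68 window, relative to the start, and was in 7.93% of all windows. A match to the C/EBP-type element TTGCNNAA was also in the Cd68 window, and in 10.8% of all windows. The Lyz2 window held no match to any of the 5, which says only that these letters are not in this window. The motifs did not overlap each other in the windows printed.

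Of the 10 genes, 4 were higher in Stat3 KO bone: Cd14, Lyz2, Cd68 and Adgre1. None was lower (limma, adjusted p under 0.05), and the other 6 did not pass. Among all amplicons tested, 5.71% were called higher and 11.0% lower. At an unadjusted p under 0.05 in limma, 5 of the 10 were higher, against 10.7% of all tested amplicons, and 1 was lower, against 20.6%. On the recovered reads edgeR called 4 higher and 0 lower, where it called 8.02% of all its amplicons higher and 7.04% lower. DESeq2 called 5 higher and 0 lower, against 8.01% and 6.31% of all its amplicons. Every Stat3 KO library lay above every Ctrl library for 6 of the 10, against 11.9% of all tested amplicons, and below every Ctrl library for 1, against 21.9%. The median log2 fold change of the 10 was 0.25, where that of all tested amplicons was -0.06, and 9 of the 10 fold changes were above 0.

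**Figure D1:**
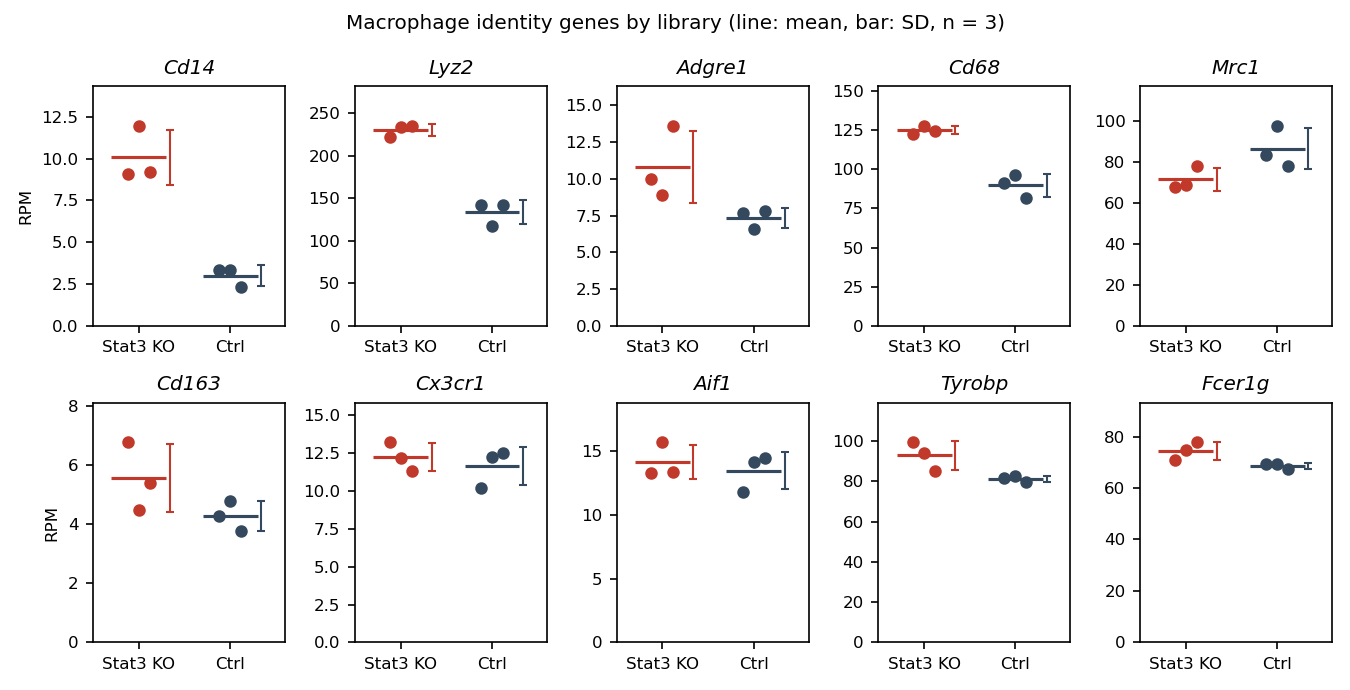
RPM of each gene (vertical axis, from 0) in the 3 Stat3 KO and 3 Ctrl libraries, 1 point per library, with the mean as a line and the SD as a bar. Cd14, Lyz2, Cd68 and Adgre1 were called higher, with Cd14 at 9.06 to 11.9 RPM in Stat3 KO and 2.30 to 3.36 RPM in Ctrl, while the Cd163, Cx3cr1 and Aif1 points overlap.

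Cd14 encodes the surface co-receptor that hands bacterial lipopolysaccharide to Toll-like receptor 4. Its amplicon (gene on chromosome 18 from 36725067 to 36726798, minus strand, GRCm38) gave 9.06, 11.9 and 9.20 RPM in Stat3 KO libraries 1 to 3, against 3.35, 3.36 and 2.30 RPM in Ctrl libraries 1 to 3. The groups did not overlap, and the lowest Stat3 KO library was well above the highest Ctrl library. The mean was 10.1 ± 1.63 RPM in Stat3 KO and 3.005 ± 0.610 RPM in Ctrl (SD, n = 3 each), a ratio of 3.35. The log2 fold change was 1.47 ± 0.18 (SE, limma, adjusted p = 5.92e-06), the largest of the 10. These values rest on 90 to 109 reads per Stat3 KO library and 28 to 45 per Ctrl library.

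Lyz2 encodes the lysozyme of macrophages and granulocytes, which cuts bacterial cell walls. The amplicon (chromosome 10, 117277331 to 117282321, minus strand) gave 222, 234 and 235 RPM in Stat3 KO libraries, against 142, 117 and 142 RPM in Ctrl libraries. The 3 Stat3 KO values lay close together and all above Ctrl. The mean was 230.3 ± 6.91 RPM in Stat3 KO and 134 ± 14.5 RPM in Ctrl (SD, n = 3 each), with a log2 fold change of 0.78 ± 0.08 (SE, limma, adjusted p = 1.13e-06). Lyz2 is close in sequence to Lyz1, and its value is uncertain to the extent that reads of both were split between them.

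Cd68 encodes a heavily glycosylated membrane protein of late endosomes and lysosomes. Its amplicon (chromosome 11, 69664213 to 69666153, minus strand) gave 123, 128 and 124 RPM in Stat3 KO libraries, against 91.2, 96.0 and 81.9 RPM in Ctrl libraries. The groups did not overlap, and the log2 fold change was 0.48 ± 0.09 (SE, limma, adjusted p = 5.85e-04). The other lysosomal genes did not follow as a group: of 16 tested, 2 were higher and 2 lower, with a median log2 fold change of -0.06. The cholesterol transfer protein gene Npc2 was higher (log2 fold change 0.40), as was the aspartic protease gene Ctsd (0.24), while the cysteine protease gene Ctsh (-0.54) and the membrane glycoprotein gene Lamp2 (-0.28) were lower. Ctsd did not pass without Ctrl replicate 1, Ctrl replicate 2 or Stat3 KO replicate 2 (limma, adjusted p = 0.0832, 0.108 and 0.0720), nor Lamp2 without Ctrl replicate 1 or Stat3 KO replicate 1 (0.0721 and 0.0501). Both also missed the threshold in limma without the trend (Ctsd 0.133, Lamp2 0.0944), Ctsd without the low-value filter (0.0830), and Lamp2 with median-of-ratios factors (0.0570) and in edgeR (0.0584).

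Adgre1, whose product F4/80 is the classic surface marker of mouse macrophages, passed the test only narrowly. The amplicon (chromosome 17, 57358691 to 57483527, plus strand) gave 9.99, 8.88 and 13.6 RPM in Stat3 KO libraries, against 7.65, 6.58 and 7.80 RPM in Ctrl libraries. Replicate 3 was the highest of the Stat3 KO libraries, and the groups did not overlap. The log2 fold change was 0.49 ± 0.16 (SE, limma, adjusted p = 0.0412). Without Stat3 KO replicate 3 it was 0.32 (adjusted p = 0.208), and the call was also lost without Ctrl replicate 1, 2 or 3 (0.0786, 0.159 and 0.0514) and without Stat3 KO replicate 1 (0.0572), without the low-value filter (0.141) and in limma without the trend (0.0794).

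Mrc1 encodes the mannose receptor CD206, which takes up glycoproteins and collagen fragments, and was the member whose mean was lower in Stat3 KO. The amplicon (chromosome 2, 14229392 to 14332057, plus strand) gave 67.8, 69.1 and 78.0 RPM in Stat3 KO libraries, against 83.6, 97.8 and 78.4 RPM in Ctrl libraries. The highest Stat3 KO and the lowest Ctrl library were nearly equal. With a log2 fold change of -0.27 ± 0.10 (SE), Mrc1 missed the threshold (limma, adjusted p = 0.0612), although its own 95% interval, -0.47 to -0.07, lay below 0. It passed without Ctrl replicate 3 (-0.33, adjusted p = 0.0323) and without Stat3 KO replicate 3 (-0.33, adjusted p = 0.0343).

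Cd163 encodes the scavenger receptor for haemoglobin bound to haptoglobin. Its amplicon (chromosome 6, 124304656 to 124330527, plus strand) gave 6.77, 4.49 and 5.42 RPM in Stat3 KO libraries, against 4.30, 4.78 and 3.78 RPM in Ctrl libraries, on 41 to 80 reads per library. The groups overlapped, and the 95% interval of the log2 fold change, -0.07 to 0.67, leaves a sizeable rise possible at this depth (limma, adjusted p = 0.262). Hp, which encodes haptoglobin, was lower, at 6.52, 5.81 and 6.03 RPM in Stat3 KO libraries, against 12.1, 12.2 and 12.2 RPM in Ctrl libraries (log2 fold change -0.89 ± 0.14 SE, limma, adjusted p = 2.15e-04).

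For neither Cx3cr1 nor Aif1 did the groups separate. Cx3cr1 (chromosome 9, 119901616 to 120069879, minus strand) gave 13.2, 12.2 and 11.3 RPM in Stat3 KO libraries, against 10.2, 12.3 and 12.5 RPM in Ctrl libraries, with overlapping groups and a log2 fold change of 0.07 (95% interval -0.22 to 0.35, limma, adjusted p = 0.786). The gene of its ligand, Cx3cl1, was at 7.21 ± 1.37 RPM in Stat3 KO and 7.48 ± 1.93 RPM in Ctrl (SD, n = 3 each, limma, adjusted p = 0.926). Aif1, which encodes the actin-bundling protein IBA1, lies on chromosome 17 from 35170991 to 35176068, minus strand. It gave 13.3, 15.7 and 13.4 RPM in Stat3 KO libraries, against 11.8, 14.1 and 14.5 RPM in Ctrl libraries, with overlapping groups and a log2 fold change of 0.07 (95% interval -0.21 to 0.35, limma, adjusted p = 0.784).

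Tyrobp, whose product DAP12 pairs with receptors such as TREM2, and Fcer1g, whose product is the common gamma chain of Fc receptors, both had every Stat3 KO library above Ctrl without passing the test. Tyrobp (chromosome 7, 30413760 to 30417585, plus strand) gave 99.2, 94.1 and 85.2 RPM in Stat3 KO libraries, against 81.4, 82.7 and 79.5 RPM in Ctrl libraries. The gap between the groups was narrow, and the log2 fold change was 0.19 ± 0.09 (SE, limma, adjusted p = 0.140). DESeq2 on the recovered reads did call it (adjusted p = 0.0404). Fcer1g (chromosome 1, 171229572 to 171234365, minus strand) gave 70.7, 74.9 and 77.7 RPM in Stat3 KO libraries, against 69.2, 69.2 and 67.3 RPM in Ctrl libraries. Its log2 fold change was 0.12 ± 0.09 (SE, limma, adjusted p = 0.390), with a 95% interval of -0.07 to 0.30.

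**Figure D2:**
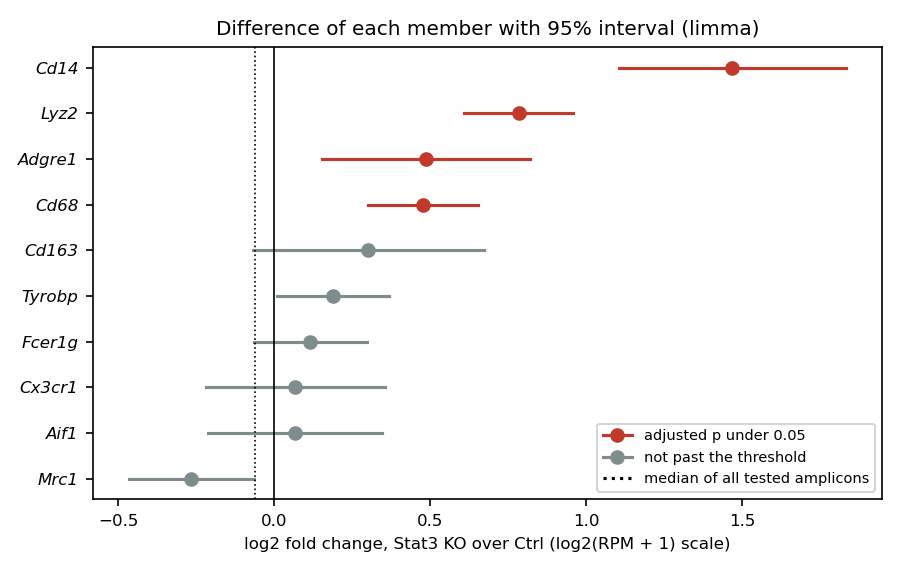
Log2 fold change of Stat3 KO over Ctrl (horizontal axis, log2(RPM + 1) scale) for the 10 genes, with the 95% interval from limma as a line; red marks adjusted p under 0.05 and the dotted line is the median of all tested amplicons, -0.06. Cd14 stands at 1.47 and Mrc1 at -0.27, with the intervals of Cd163, Cx3cr1, Aif1 and Fcer1g crossing 0.

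That some of the 10 passed and others did not does not itself show that they differed, so each was also set against the mean of the other 9 within its own library, on the log2(RPM + 1) scale. Relative to the others, Cd14 was 1.22 higher in Stat3 KO than in Ctrl, Lyz2 0.46 and Cd68 0.12, each with non-overlapping groups. Mrc1 differed by -0.71, Cx3cr1 by -0.33, Fcer1g by -0.28 and Tyrobp by -0.20, also with non-overlapping groups. For each of these 7 the exact two-sided permutation test gave p = 0.1, the smallest that 3 against 3 can give, and 0.143 after Benjamini-Hochberg adjustment over the 10, so the design cannot reach the threshold. Adgre1 (0.13, exact permutation p = 0.7) and Cd163 (-0.07, exact permutation p = 0.7) did not separate from the others. Aif1 differed by -0.34 with overlapping groups (exact permutation p = 0.2). Except for Mrc1, the sign of the differences below 0 depended on the denominator, whose mean includes the large change of Cd14. Against the median of the other 9, Cx3cr1 (0.01), Aif1 (0.01), Fcer1g (0.04) and Tyrobp (0.12) lay slightly above 0 and Mrc1 was at -0.34, all with overlapping groups. Against that median Cd14 (1.41), Lyz2 (0.71), Adgre1 (0.43) and Cd68 (0.40) had non-overlapping groups (exact permutation p = 0.1). Against the mean of the tested other tissue macrophage genes, a list described below, Mrc1 was at -0.29. Cd14 (1.45), Lyz2 (0.76), Adgre1 (0.46) and Cd68 (0.45) were higher. All of these had non-overlapping groups (exact permutation p = 0.1, 0.2 adjusted over the 10), and the remaining members overlapped.

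With the mean of 12 genes expressed across leukocytes as the denominator, a choice made after the values were seen, Cd14 was 1.32, Lyz2 0.63 and Cd68 0.32 higher in Stat3 KO than in Ctrl on the log2 scale. Mrc1 was -0.42 relative to them. All 4 had non-overlapping groups (exact permutation p = 0.1, 0.25 adjusted over the 10). For Tyrobp (0.04), Fcer1g (-0.04), Cx3cr1 (-0.09) and Aif1 (-0.09) the groups overlapped. Adgre1 was 0.33 higher with overlapping groups (exact permutation p = 0.2), and Cd163 0.15 higher, also with overlap (exact permutation p = 0.5). Of these 12 leukocyte genes, 3 were higher and 1 lower, with a median log2 fold change of 0.18. The integrin chain gene Itgb2 was at 20, 21.4 and 18.4 RPM in Stat3 KO libraries, against 10.6, 11.4 and 10.5 RPM in Ctrl libraries (log2 fold change 0.82, limma, adjusted p = 1.37e-04). The actin-bundling gene Lcp1 (0.46) and Cd52 (0.48) were higher, and the tetraspanin gene Cd53 (-0.65) was lower. Cd52 did not pass without Ctrl replicate 1, Ctrl replicate 3 or Stat3 KO replicate 2 (limma, adjusted p = 0.107, 0.0912 and 0.153), without the low-value filter (0.102) or in limma without the trend (0.0730). The Cd53 call was lost without the low-value filter (0.0564) and in DESeq2 (0.0591). Ptprc, which encodes the common leukocyte antigen CD45, was at 12.1 ± 2.45 RPM in Stat3 KO and 10.7 ± 1.52 RPM in Ctrl (SD, n = 3 each, limma, adjusted p = 0.535).

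Receptors that signal through the Tyrobp and Fcer1g adaptors had calls in both directions. Of 16 with an amplicon, 10 were tested, 2 were higher and 1 lower, with a median log2 fold change of -0.09. Among all amplicons tested 5.71% were higher and 11.0% lower, so 1 lower of 10 is near the share over all. Clec4d and Clec4e encode neighbouring C-type lectins that recognise fungal and mycobacterial glycolipids and use the Fcer1g adaptor. Clec4d was at 8.81, 7.01 and 6.24 RPM in Stat3 KO libraries, against 2.23, 2.77 and 1.89 RPM in Ctrl libraries (log2 fold change 1.34 ± 0.19 SE, limma, adjusted p = 3.82e-05). Clec4e was at 3.22, 3.51 and 3.27 RPM in Stat3 KO libraries, against 0.515, 0.822 and 0.903 RPM in Ctrl libraries (1.32 ± 0.21 SE, adjusted p = 1.87e-04), and passed the filter on low values through the Stat3 KO group. The groups of both genes lay far apart. Clec4e rested on 32 to 38 reads per Stat3 KO library and 6 to 11 per Ctrl library. DESeq2 called 1 gene of the list higher. With only amplicons averaging at least 5 RPM tested, 0 genes of the list were called higher. Trem2, whose product signals through the Tyrobp adaptor, was lower, at 1.61, 3.07 and 2.86 RPM in Stat3 KO libraries, against 5.33, 4.49 and 4.6 RPM in Ctrl libraries (-0.75 ± 0.20 SE, adjusted p = 0.0129). The Trem2 call was lost without Ctrl replicate 1 (adjusted p = 0.0624) or Stat3 KO replicate 1 (0.0699), without the low-value filter (0.0677) and in DESeq2 (0.0584). The Fc receptor genes Fcgr1 (-0.36) and Fcgr3 (-0.27), which need the Fcer1g chain, had every Stat3 KO library below Ctrl and did not pass (limma, adjusted p = 0.0868 and 0.0935). Clec5a (0.52) and Clec4n (0.45) had every Stat3 KO library above Ctrl and did not pass either (limma, adjusted p = 0.0886 and 0.0841). At an unadjusted p under 0.05 in limma, 4 of the 10 were higher and 4 lower, against 10.7% and 20.6% of all tested amplicons.

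Downstream of these adaptors, 3 of 14 signalling and inhibitory genes tested were higher, and the list's median log2 fold change was 0.23, with 13 of 14 above 0. Card9, which encodes the adaptor that links SYK to NF-kappa-B, was at 8.31 ± 1.26 RPM in Stat3 KO and 4.63 ± 0.229 RPM in Ctrl (SD, n = 3 each, log2 fold change 0.72, limma, adjusted p = 0.00451). The scaffold gene Lcp2 (0.45, adjusted p = 0.00340) and the kinase gene Btk (0.67, adjusted p = 0.0138) were higher too. Btk did not pass without Ctrl replicate 1 or Stat3 KO replicate 2 (adjusted p = 0.0662 and 0.0598), or without the low-value filter (0.0702). Syk itself was at 5.97 ± 0.799 RPM in Stat3 KO and 4.69 ± 0.206 RPM in Ctrl (SD, n = 3 each, limma, adjusted p = 0.251), with non-overlapping groups.

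The partners of Cd14 in lipopolysaccharide sensing did not rise with it as a group. Of 15 tested genes of the pathway, 1 was higher and 1 lower, with a median log2 fold change of -0.06. Tlr4, the signalling receptor, was at 16.3 ± 2.22 RPM in Stat3 KO and 18.3 ± 1.75 RPM in Ctrl (SD, n = 3 each, limma, adjusted p = 0.431), and Ly96, its co-receptor MD-2, at 6.89 ± 1.06 RPM in Stat3 KO and 5.56 ± 0.410 RPM in Ctrl (SD, n = 3 each, limma, adjusted p = 0.295). The cytokine gene Il1b was at 2.12, 2.52 and 1.64 RPM in Stat3 KO libraries, against 0.258, 0.224 and 0.329 RPM in Ctrl libraries. It rested on 16 to 25 reads per Stat3 KO library and 3 to 4 per Ctrl library, and passed the filter through the Stat3 KO group (log2 fold change 1.27 ± 0.23 SE, limma, adjusted p = 7.25e-04). Without Stat3 KO replicate 1 or 2 its mean was under the filter, and it was not tested. In DESeq2 it was not called, with 0 genes of the list higher. The adaptor gene Tirap was lower (-0.60, adjusted p = 0.0147), and did not pass without Ctrl replicate 1, Ctrl replicate 2 or Stat3 KO replicate 3 (0.0667, 0.0680 and 0.0777), without the low-value filter (0.0802) or in limma without the trend (0.0613).

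**Figure D3:**
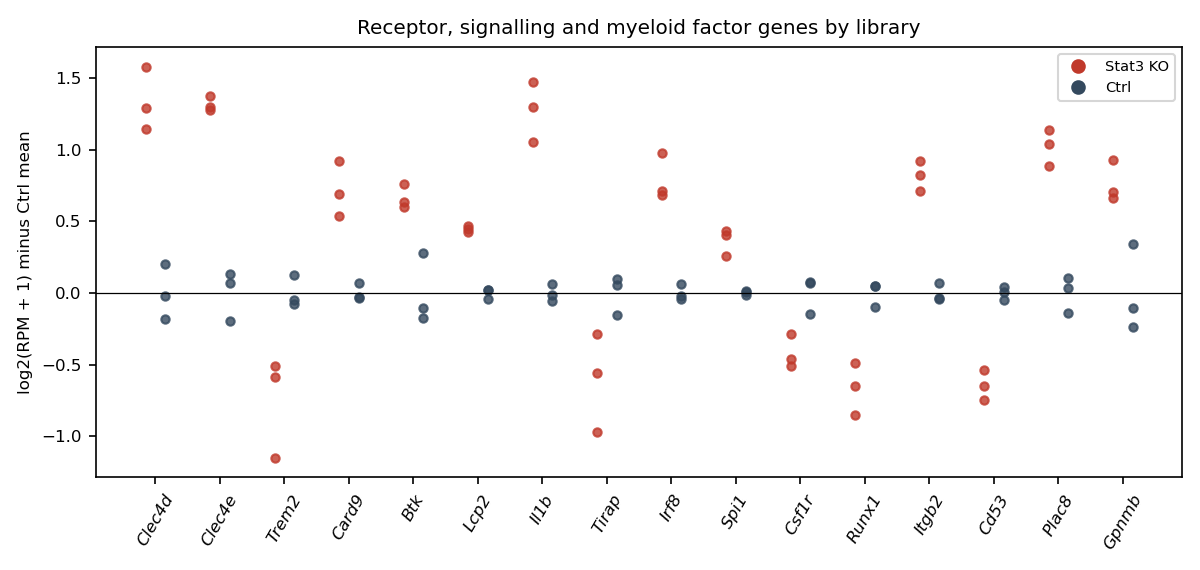
Log2(RPM + 1) minus the Ctrl mean (vertical axis) for 16 receptor, signalling and myeloid factor genes, 1 point per library, Stat3 KO left of Ctrl within each gene. Clec4d, Clec4e and Il1b lie highest in Stat3 KO, and Trem2, Tirap, Csf1r, Runx1 and Cd53 lie below 0 there.

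Genes that set macrophage fate and survival also had calls in both directions, with 3 of 16 higher and 4 lower and a median log2 fold change of -0.08. Among all amplicons tested, 5.71% were higher and 11.0% lower. Over the 18 settings run the list had 1 to 4 higher and 2 to 4 lower. Irf8, a transcription factor gene of the monocyte lineage that interferon also induces, was at 20, 16.4 and 16.1 RPM in Stat3 KO libraries, against 9.36, 9.49 and 10.1 RPM in Ctrl libraries (log2 fold change 0.79 ± 0.13 SE, limma, adjusted p = 3.44e-04). Spi1, which encodes PU.1, was at 25.0, 24.4 and 22.1 RPM in Stat3 KO libraries, against 18.0, 18.3 and 18.4 RPM in Ctrl libraries. Its groups did not overlap (0.37, adjusted p = 0.0329), but leaving out any library other than Stat3 KO replicate 3 raised the adjusted p to between 0.0566 and 0.104, and without the low-value filter it was 0.0605. Csf1r, the receptor gene for the growth factors on which macrophages depend, was at 28.7, 27.6 and 32.5 RPM in Stat3 KO libraries, against 41.8, 36.0 and 42.1 RPM in Ctrl libraries (-0.42 ± 0.11 SE, adjusted p = 0.0108). The Csf1r call was lost without Ctrl replicate 1 or Stat3 KO replicate 2 (adjusted p = 0.0506 and 0.0600), and in limma without the trend (0.0513). Its ligand gene Csf1 was at 73.3 ± 8.97 RPM in Stat3 KO and 82.5 ± 10.6 RPM in Ctrl (SD, n = 3 each, limma, adjusted p = 0.287). Runx1 (-0.66) and Klf4 (-0.46), transcription factor genes also active in skeletal cells, were lower. Zeb2 was lower too (-0.39, limma, adjusted p = 0.00711), and Id3 was higher (0.25, limma, adjusted p = 0.0235).

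Other tissue macrophage genes gave 2 higher and 2 lower of 23 tested, with a median log2 fold change of 0.03. Complement C1qb was at 26.0 ± 3.38 RPM in Stat3 KO and 31.8 ± 4.42 RPM in Ctrl (SD, n = 3 each, limma, adjusted p = 0.121), and C1qa was under the filter, at 0.0367 RPM on average in Stat3 KO and 0.0287 RPM in Ctrl. The integrin gene Itgam (0.41) and Gpnmb (0.77) were higher, and Trem2 and Tmem119 (-0.35), a gene that osteoblasts also express, were lower. Itgam did not pass without Ctrl replicate 1, Ctrl replicate 2, Stat3 KO replicate 1 or Stat3 KO replicate 3 (limma, adjusted p = 0.0553 to 0.1), nor Gpnmb without Ctrl replicate 2 (0.0539). Without the low-value filter neither Itgam (0.0655) nor Gpnmb (0.0526) passed, and Tmem119 missed the threshold in limma without the trend (0.0563). Among receptors that clear dead cells and lipoproteins, 1 of 11 was lower, Cd36 (-0.32). Cd36 did not pass without Ctrl replicate 1, Ctrl replicate 3, Stat3 KO replicate 1 or Stat3 KO replicate 2 (limma, adjusted p = 0.0866 to 0.199), nor under 7 other settings, with TMM factors (0.0929), edgeR (0.0886) and DESeq2 (0.137) among them. In a list of ligands and signals that macrophages read, 3 of 7 were lower, namely Hp, Cd47 (-0.42) and the chemokine gene Cxcl12 (-0.30). Without Ctrl replicate 1 neither Cd47 (adjusted p = 0.156) nor Cxcl12 (0.0951) passed, and of the fits that left out a library Cxcl12 passed only without Stat3 KO replicate 3. Cd47 also missed the threshold without Ctrl replicate 2 (0.0803), Stat3 KO replicate 2 (0.0700) or Stat3 KO replicate 3 (0.0518), without the low-value filter (0.0756), with quantile normalization (0.0589) or in limma without the trend (0.103). Cxcl12 also missed it with TMM factors (0.0769), median-of-ratios factors (0.0922) or quantile normalization (0.102), in limma without the trend (0.0736), in edgeR (0.0814) and in DESeq2 (0.106).

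**Figure D4:**
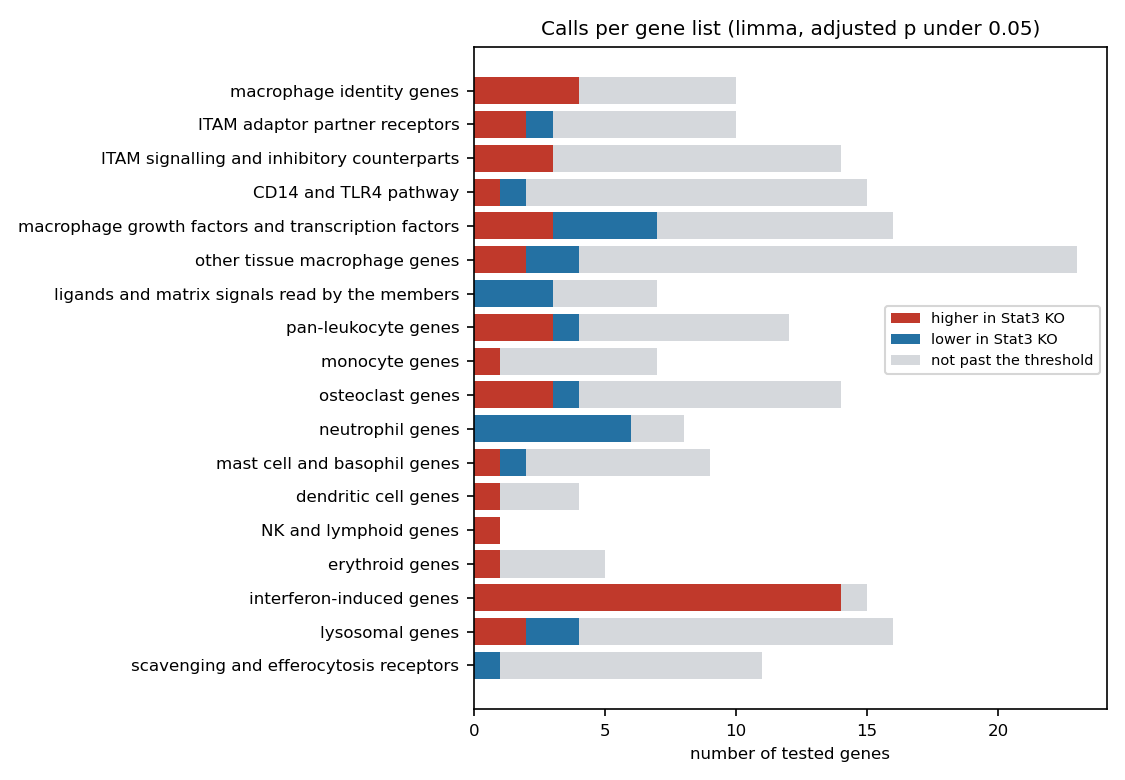
Number of tested genes (horizontal axis) in each list that were higher, lower or not past the threshold in Stat3 KO (limma, adjusted p under 0.05). Macrophage identity genes show 4 higher of 10, the interferon-induced list 14 higher of 15 and the neutrophil list 6 lower of 8.

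Some markers of other cells that express some of the 10 genes also differed between the groups, and their part in the values above was not tested. Among all amplicons tested, 5.71% were called higher and 11.0% lower. The 1 lower of 14 in the osteoclast list and 1 lower of 9 in the mast cell list are near or under that share. The neutrophil list had 6 of 8 tested genes lower, with a summed level of 46.1 to 52.3 RPM in Stat3 KO libraries and 104 to 108 RPM in Ctrl libraries. Of the early granule genes, all under the filter, Elane and Mpo were at or near 0 in both groups. Prtn3 had 4 to 11 reads per library, with means of 0.763 RPM in Stat3 KO and 0.677 RPM in Ctrl. The granule protein genes Ngp (-1.54), Ltf (-1.49), S100a9 (-1.27) and Lcn2 (-1.07) were among those lower, opposite in direction to Lyz2 and Cd14. The osteoclast list had 3 of 14 higher and 1 lower and a median log2 fold change of 0.09, with a sum of 1312 to 1333 RPM in Stat3 KO libraries and 962 to 1028 RPM in Ctrl libraries. The gelatinase gene Mmp9 was higher, at 671 ± 22.3 RPM in Stat3 KO and 411 ± 13 RPM in Ctrl (SD, n = 3 each). The 13 other genes, a sum taken after the values were seen, came to 625 to 669 RPM in Stat3 KO libraries and 565 to 606 RPM in Ctrl libraries. Tnfrsf11a, which encodes the receptor RANK (0.54), and the proton pump subunit gene Atp6v0d2 (0.41) were also higher, and the calcitonin receptor gene Calcr (-1.13) was lower. Neither Tnfrsf11a nor Atp6v0d2 passed without Ctrl replicate 1 (limma, adjusted p = 0.0636 and 0.0679), nor Tnfrsf11a without the low-value filter (0.0524) or Atp6v0d2 in limma without the trend (0.0685). The resorption genes Acp5 (0.14, adjusted p = 0.241) and Ctsk (0.07, adjusted p = 0.676) did not pass.

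Monocyte markers had 1 of 7 tested genes higher, Plac8, at 28.3, 30.4 and 25.2 RPM in Stat3 KO libraries, against 13.6, 14.3 and 11.9 RPM in Ctrl libraries (log2 fold change 1.02 ± 0.12 SE, limma, adjusted p = 6.74e-06). The chemokine receptor gene Ccr2, a defining monocyte marker, was at 7.72 ± 1.87 RPM in Stat3 KO and 6.42 ± 0.967 RPM in Ctrl (SD, n = 3 each, adjusted p = 0.424). The monocyte list summed to 188 to 197 RPM in Stat3 KO libraries and 158 to 182 RPM in Ctrl libraries. Much of each sum was F13a1, at 122 ± 8.24 RPM in Stat3 KO and 121 ± 10.9 RPM in Ctrl (SD, n = 3 each). Plac8 accounted for much of the gap, so the sums do not show a rise across the list. The median log2 fold change of the 7 tested was 0.22, with 5 above 0 and 2 below. Ms4a6c (0.35, limma, adjusted p = 0.0624) and Treml4 (0.49, limma, adjusted p = 0.117) had every Stat3 KO library above Ctrl without passing. Ace (-0.33, limma, adjusted p = 0.208) had every Stat3 KO library below Ctrl, also without passing. In the mast cell list Tpsab1 (0.58) was higher and Hdc (-0.46) lower of 9, with sums of 592 to 632 RPM in Stat3 KO libraries and 647 to 681 RPM in Ctrl libraries. Of 4 dendritic cell genes tested Itgax (0.73) was higher, at 2.28 ± 0.495 RPM in Stat3 KO and 0.968 ± 0.0208 RPM in Ctrl (SD, n = 3 each), so that it passed the low-value filter through the Stat3 KO group, and Xcr1 had no read in any library. Itgax did not pass without Ctrl replicate 1, Ctrl replicate 2 or Stat3 KO replicate 2 (adjusted p = 0.0645, 0.0693 and 0.108). DESeq2 did not call it either, with 0 genes of the list higher. Of 12 natural killer and lymphoid genes 11 were under the filter. The tested gene, Klrb1c, a surface receptor gene of natural killer cells, was at 4.44 ± 1.02 RPM in Stat3 KO and 1.53 ± 0.616 RPM in Ctrl (SD, n = 3 each, adjusted p = 0.00155). Of 5 erythroid genes tested, the haem synthesis gene Alas2 (0.27, limma, adjusted p = 0.0493) was higher. It did not pass without Ctrl replicate 2 or 3 or without any of the Stat3 KO replicates (adjusted p = 0.0686 to 0.189), nor with a pseudocount of 0.1 RPM (0.0503), without the low-value filter (0.0725) or in limma without the trend (0.117).

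Interferon-induced genes were the list with the most calls: 14 of 15 tested were higher, with a median log2 fold change of 1.70. Gbp4 (3.85), Cxcl10 (3.40), Cxcl9 (3.32) and Gbp2 (2.55) led it. Earlier results of these data had already shown this rise, and its part in the values of the 10 genes was not tested. For each of the 4 members past the test, the amplicons with the nearest profile over the 6 libraries were found, by the root mean square difference of log2(RPM + 1) after subtracting each amplicon's Ctrl mean. Nearest to Cd14 were the immunoproteasome subunit gene Psmb8 (difference 0.109), which is also on the interferon-induced list, the complement gene C3 (0.158) and the skin barrier gene Lor (0.178). Nearest to Lyz2 were Ms4a4a (0.0854), a membrane-spanning protein gene, the signalling adaptor gene Pik3ap1 (0.0981) and the phosphatase gene Ptpre (0.111). Adgre1 had Treml4 (0.0744), Smarcal1 (0.0859) and the proteasome subunit gene Psmb1 (0.0974). Treml4 is also on the monocyte list, where it did not pass, and rested on 18 to 35 reads per library. Cd68 had Usp25 (0.0394), Lhfp (0.0464) and Gas2 (0.0524). These are the closest amplicons among those tested, over the same 6 libraries, and say nothing about shared control.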

How the data were processed

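Bone RNA of 3 Stat3 KO and 3 Ctrl samples was extracted with Trizol, reverse-transcribed and sequenced on the Ion AmpliSeq Transcriptome Mouse panel, per the labels' protocols. The authors deposited RPM values, the reads of each of 23930 amplicons scaled to a common total per library. The aligner, counter and build are not stated. Every value was a whole number of reads within 0.1 read, so counts were recovered. For 27 symbols that a spreadsheet had turned into dates, the symbol was read from the amplicon's name.

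Amplicons averaging 1 RPM or more over the 6 libraries were tested on log2(RPM + 1) with limma 3.58.1 (R 4.3.3, empirical Bayes with trend, 3 against 3), with Benjamini-Hochberg adjustment over all 12846 and a threshold of 0.05. For weakly detected genes the added 1 RPM shrinks the fold change, and the 95% intervals are not adjusted. Alternatives used edgeR 4.0.16 and DESeq2 1.42.0 on the recovered counts, among others. Gene positions are GENCODE M21 (GRCm38). The labels do not say that replicates are separate embryos or litters, so p-values measure only the spread between these samples. The members and the 17 other lists were chosen with earlier results of these data known. Named were all members, Stat3, up to 4 genes per other list with the largest change among those past the threshold, Csf1r, Spi1, Ptprc, C1qa, Syk, Tlr4, Ly96, Acp5 and Ctsk whatever their value, and the 3 nearest profiles of each member past the threshold. Outside this rule, Fcgr1, Fcgr3, Csf1, Ccr2, Cx3cl1, C1qb, Elane, Mpo and Xcr1 were chosen after their values were seen. So were Clec4n, Clec5a, Ms4a6c, Ace, Zeb2 and Id3.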

Additional observations from a re-analysis of the deposited data

How the results depend on the processing

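Cd14, Lyz2 and Cd68 stayed higher and past the threshold under all 18 settings run, with log2 fold changes of 0.62 to 1.80, 0.69 to 0.84 and 0.41 to 0.54. Adgre1 passed in 11 of the 18. With a replicate block 1 member, Mrc1, was lower, and leaving out a library gave 0 to 1 lower. Without Ctrl replicate 1 the fold changes were -0.0168 for Cx3cr1 and -0.0201 for Aif1, and without Stat3 KO replicate 2 that of Aif1 was -0.00577. Over the fits that left out a library the highest was 0.117 for Cx3cr1 and 0.118 for Aif1. Adgre1 relative to the other members was -0.0431 without Stat3 KO replicate 3 and reached 0.259 without Stat3 KO replicate 2. The causes were not tested.

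Over all amplicons, limma without the trend called 361 higher and 634 lower, and 14 lower in the other lists. Lower calls numbered 869 without the low-value filter, 895 with median-of-ratios factors, 877 with quantile normalization, 926 in edgeR and 742 in DESeq2. Leaving out a library gave 444 to 705 higher and 729 to 1314 lower. To see whether replicate numbers pair samples, deviations of log2(RPM + 1) from the group means were correlated between Stat3 KO and Ctrl libraries. Same-numbered pairs gave 0.0126, -0.0193 and 0.107, and differently numbered pairs -0.0983 to 0.0979. The numbers were therefore not taken to pair samples. The replicate block called 836 higher and 1626 lower. Depth limits Cd163 and Cd14, whose libraries held under 110 reads.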
